A study of Mus musculus with 21 samples.

Results

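The glucose, monocarboxylate and amino acid transporters described here are the genes whose symbols consist of Slc2a, Slc16a, Slc7a or Slc38a and a number, without Slc7a11. The rule used the symbol and no measured value, although earlier results of these data were known when it was set. These transporters were 51 of the 35266 genes in the count table, with 12 Slc2a, 14 Slc16a, 14 Slc7a and 11 Slc38a genes. Their RNA was measured by RNA-Seq in AGRP and POMC neurons, the arcuate nucleus cell types that promote and restrain feeding, each picked by hand as fluorescent cells from the hypothalamus of 21 individual male mice on a C57BL/6J background. AGRP neurons came from the NPY-hrGFP strain, in which the Npy promoter drives the green reporter, and POMC neurons from the Pomc-GFP strain, so cell type and reporter strain cannot be told apart. Fed mice (5 for AGRP and 5 for POMC neurons) had food at all times, and food-deprived (FD) mice (6 for AGRP and 5 for POMC neurons) had only water for 24 hr, with every mouse moved to a fresh cage when the deprivation began. AGRP mice were 46 to 55 days old when fed and 47 to 55 days old when FD, with 2 of the 5 fed and 3 of the 6 FD mice in the cohort aged 46 to 47 days, whereas all POMC mice were 51 to 56 days old.

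Libraries were made from 44 to 214 cells and held 9822298 to 37663979 gene counts, and each library correlated with the others of its group at a mean r of 0.912 to 0.951 across the 16513 genes tested. Agrp and Npy summed to 12064 to 68921 TPM (reads scaled to transcript length and library total) in AGRP libraries and 5.45 to 226 TPM in POMC libraries, and Pomc and Cartpt summed to 8809 to 37160 TPM in POMC and 114 to 227 TPM in AGRP libraries. The 23 markers of astrocytes, oligodendrocytes, microglia, endothelial cells, pericytes and tanycytes or ependymal cells summed to 9.71 to 39.3 TPM in AGRP fed, 13.6 to 29.1 in AGRP FD, 14.6 to 28.9 in POMC fed and 13.0 to 37.4 in POMC FD libraries, and 2 to 3 of them were at 0 in each group. Of the 14 of these markers that were tested, 1 (the astrocyte gene Aldh1l1, higher in FD) passed between FD and fed AGRP neurons and none passed in the other comparisons, and their part in the transporter results was not tested.

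Cells take up the fuels and building blocks that they cannot make through membrane carriers. Slc2a genes encode the GLUT carriers for glucose, other sugars and polyols, Slc16a genes the monocarboxylate carriers (MCT) for lactate, pyruvate and ketone bodies and also some carriers of aromatic amino acids, Slc7a genes the carriers of cationic amino acids and the light chains that pair with the heavy chains Slc3a1 or Slc3a2 to exchange large neutral amino acids, and Slc38a genes the sodium-coupled carriers of glutamine and other small neutral amino acids. AGRP and POMC neurons adjust their firing to circulating glucose, amino acids and hormones, and several carriers on lysosomes also take part in signaling amino acid supply to the growth regulator mTORC1.

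Amino acid carriers made up most of the transporter RNA in both cell types. A total of 14 of the 51 members had a mean over 20 TPM in at least 1 of the 4 groups, namely 7 Slc7a, 4 Slc38a, 3 Slc2a and none of the Slc16a genes. TPM is scaled by transcript length, so levels of different genes are compared on it. With a limit of 10 TPM there were 22 such members and with 40 TPM there were 8. The Slc38a genes together summed to 379.7 ± 17.1 TPM (SD, n = 5) in AGRP fed, 472 ± 61.1 (n = 6) in AGRP FD, 421 ± 47.3 (n = 5) in POMC fed and 439 ± 46.0 (n = 5) in POMC FD neurons. Slc7a genes followed at 323 ± 37.1, 389.8 ± 40.5, 309.8 ± 36.2 and 329 ± 18.8 TPM in the same order. Glucose carriers summed to less, 146 ± 22.6, 149 ± 29.9, 214 ± 16.2 and 230.1 ± 27.6 TPM, so that every AGRP library (108 to 200.3 TPM) but the highest lay below the lowest POMC library (199.9 TPM). Monocarboxylate carriers came last, with 63.5 ± 18.5, 53.8 ± 14.3, 62.1 ± 15.6 and 59.4 ± 22.4 TPM, values that differed by less than the spread between libraries.

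Each family was led by 1 to 3 genes. Slc38a1 (SNAT1, chr15:96571417-96642913 on mm10), which brings glutamine into neurons, had the highest level of any member, 221 ± 21.8 TPM in AGRP fed, 269 ± 30.6 in AGRP FD, 266 ± 49.2 in POMC fed and 241 ± 28.5 in POMC FD neurons (SD), which was 54.8 to 63.1% of the family's sum. Its neighbor Slc38a2 (SNAT2, chr15:96687393-96699698), a carrier of alanine, serine and glutamine that cells raise when amino acids run short, followed at 88.0 ± 25.5, 129.6 ± 18.7, 89.3 ± 8.03 and 118 ± 18.9 TPM. Among Slc7a genes the highest mean levels were those of Slc7a1 (CAT1, chr5:148327409-148399904), the general importer of arginine and lysine, and of Slc7a14 (chr3:31202857-31310378), a lysosomal member of the cationic amino acid branch. Slc2a3 (GLUT3, chr6:122727808-122742745), the main neuronal glucose carrier, gave 52.7 to 54.4% of the Slc2a sum. It had 78.7 ± 10.1, 78.3 ± 20.8, 116 ± 16.2 and 122 ± 44.9 TPM in the same order of groups. The proton-coupled myo-inositol carrier Slc2a13 (HMIT) had 14 ± 2.02, 15.2 ± 6.93, 48.0 ± 6.97 and 42.7 ± 9.90 TPM and was second in POMC neurons. In AGRP neurons Slc2a1 (GLUT1), the carrier of the blood-brain barrier and of many other cells, was second, with 23.4 ± 9.54, 38.7 ± 7.17, 24.3 ± 13.8 and 31.4 ± 11.9 TPM. Of the monocarboxylate carriers, Slc16a1 (MCT1), with 10.4 ± 4.64, 12.4 ± 8.62, 13.7 ± 7.78 and 13.9 ± 3.94 TPM, and the neuronal form Slc16a7 (MCT2), with 15.6 ± 9.83, 11.0 ± 5.24, 9.62 ± 4.64 and 12.7 ± 9.71 TPM, had the highest means over the 4 groups, and neither passed the test in any comparison.

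**Figure D1:**
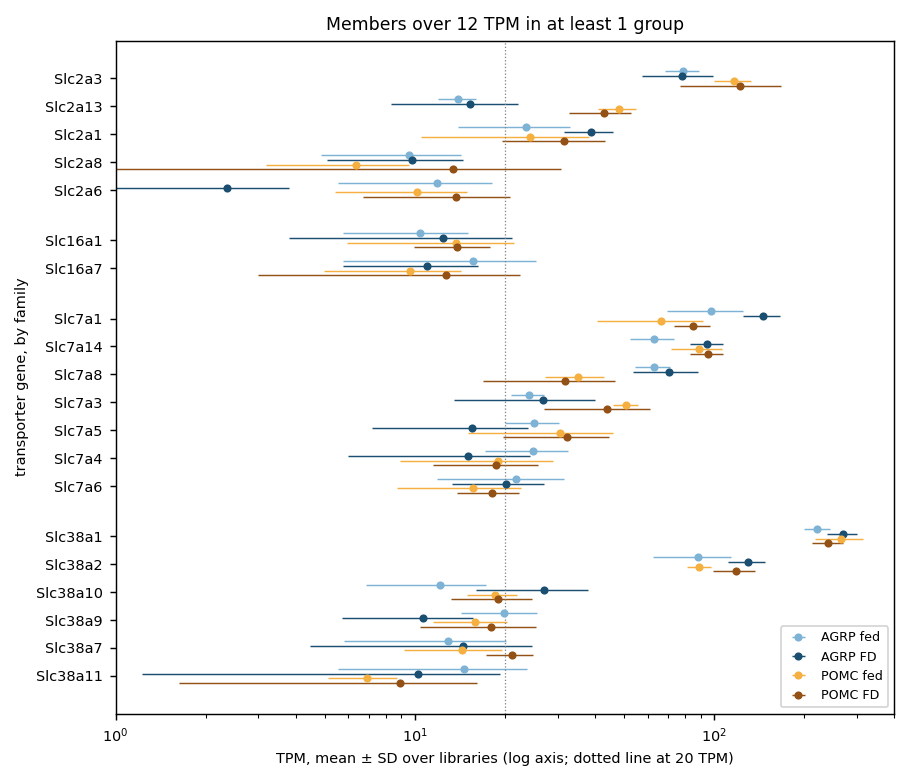
Mean TPM on a log axis for the 20 members with a mean over 12 TPM in at least 1 of the 4 groups, sorted by level within each family, with bars of ± 1 SD over 5 or 6 libraries (bars that reach below 1 TPM end at the left edge). Slc38a1 lies farthest right at 221 to 269 TPM, and no Slc16a gene passes the dotted line at 20 TPM.

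A further group of members was at or near 0. Slc2a7, Slc7a12, Slc7a13 and Slc38a5 had no count in any library, which allows at most 3 counts, or 0.0797 to 0.305 CPM (counts scaled to the library total), in each. All 4 group means were under 1 TPM for 12 members, these 4 included. The insulin-responsive carrier Slc2a4 (GLUT4) was at 0.0108 TPM in AGRP FD neurons and at 0 in the other groups. The filter on low counts (CPM over 1 in at least 3 of the 21 libraries) left 38 members for testing, namely 8 Slc2a, 13 Slc16a, 9 Slc7a and 8 Slc38a genes. Exons of 10 members overlap those of a gene on the opposite strand. Counting ignored strand, so that reads within an overlap could not be assigned to 1 gene by strand. Among the members called in any comparison these were Slc16a9, whose antisense neighbor Gm7097 had 0 counts, and Slc38a10. A second neighbor of Slc16a9, Gm9877, covers 419 of 3756 exon bases. It is not among the counted genes under this name, so any reads of it there cannot be told apart from those of Slc16a9. For Slc38a10, 367 of 5423 exon bases lie under Gm11769, with 119 counts over all libraries against 13956 of Slc38a10.

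The first comparison asked how AGRP neurons change when food is withheld, and it showed 5 members of the amino acid carrier families rising. A member was called at a q (Benjamini-Hochberg adjusted p of the edgeR quasi-likelihood test) under 0.05, and values in this and the following comparisons are CPM normalized for library composition. Slc7a1, Slc7a14, Slc38a1, Slc38a2 and Slc38a10 were higher in FD than in fed mice and Slc2a6 was lower, so 6 of the 38 tested members passed. A total of 10 had an unadjusted p under 0.05. The share of all genes under that unadjusted limit was not taken, here or in the later comparisons. Over all 16513 genes, 5.87% passed as higher and 4.43% as lower. The libraries of FD and fed mice did not overlap for 4 members, all higher in FD, against 7.65% of all genes in either direction. By family, 3 of 8 tested Slc38a, 2 of 9 Slc7a, 1 of 8 Slc2a and 0 of 13 Slc16a genes passed. Their median log2 fold changes were 0.48, 0.12, -0.08 and -0.10, beside -0.02 over all genes tested. In sorted cells, a change in a carrier's RNA per cell and a change in which cells of the type were picked cannot be told apart. Counts were also scaled to the added spike-in RNA in place of library composition. The factor used the labelled spike-in volume and the number of sorted cells. Spike-in counts were not in proportion to that volume, with 2755357 at 10 µl in AGRP fed replicate 2 and 53105 at 4.28 µl in replicate 5. A loss of calls under this scaling therefore does not show that RNA per cell was unchanged. Under it, none of the members passed in this comparison, in that of fed mice or in the interaction. Slc7a8, Slc16a9 and Slc16a10 passed between the cell types of FD mice. Over all 16513 genes, 52 then passed as higher and 45 as lower between FD and fed AGRP neurons. The log2 fold changes there were 0.64 (SE 0.76) for Slc7a1, 0.60 (SE 0.76) for Slc7a14 and 0.54 (SE 0.75) for Slc38a1. They were 0.66 (SE 0.76) for Slc38a2, 1.29 (SE 0.81) for Slc38a10 and -2.04 (SE 1.06) for Slc2a6.

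Slc7a1 was at 164, 174, 156, 289 and 213 normalized CPM in the 5 fed AGRP libraries and at 294 at the lowest, 345 at the median and 403 at the highest in the 6 FD libraries. Every FD library lay above every fed library (log2 fold change 0.82, SE 0.18, q = 0.00334). Slc7a14 stood at 161, 164, 166, 224 and 164 in fed mice, with replicate 4 apart from the others, and at 243 at the lowest, 319 at the median and 399 at the highest in FD mice. The FD libraries again lay above all fed ones, and this was the smallest q among the members (log2 fold change 0.86, SE 0.15, q = 0.000300). In fed mice Slc38a1 was at 446, 609, 495, 587 and 513, and in FD mice at 630.0 at the lowest, 747 at the median and 907 at the highest. The rise of this carrier was smaller in ratio but began from the highest level of any member, and the groups did not overlap (log2 fold change 0.53, SE 0.12, q = 0.00523). For Slc38a2, fed libraries were at 127, 113, 75, 99.3 and 166 and FD libraries at 156 at the lowest, 212 at the median and 227 at the highest. A single fed library, replicate 5, lay above the lowest FD library (log2 fold change 0.80, SE 0.18, q = 0.00269). Each of these 4 calls held without any 1 of the 11 AGRP libraries, and that of Slc38a1 was lost in mice aged 51 to 56 days alone (q = 0.116).

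Slc38a10, a less studied member of the glutamine carrier family, rose the most and was the only member to pass the study's stricter criteria for a differentially expressed gene. These ask for more than a doubling or halving (an absolute log2 value above 1) beside the q and for a group whose mean exceeds 20 CPM, and 4.46% of all genes passed. Its fed libraries were at 15.4, 9.90, 14.9, 29.9 and 22.7 and its FD libraries at 50.5, 85.2, 61.5, 42.0, 26.5 and 32.4 normalized CPM (log2 fold change 1.42, SE 0.33, q = 0.00425). The highest fed library, replicate 4, lay above the lowest FD library, replicate 5. Its mean also differed between the age cohorts. In mice aged 46 to 47 days the mean was 65.7 in 3 FD against 26.3 in 2 fed libraries, and in those aged 51 to 56 days 33.6 in 3 FD against 13.4 in 3 fed libraries. The log2 ratio of FD over fed means was 1.32 in the younger and 1.33 in the older cohort, with no overlap of FD and fed libraries within either. Within both cohorts, the FD libraries of Slc7a1, Slc7a14, Slc38a1 and Slc38a2 also lay above the fed ones.

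A single glucose carrier fell. Slc2a6 (GLUT6), a carrier found on lysosomes, was at 12.1, 4.13, 8.76, 3.27 and 7.33 normalized CPM in fed and at 0.632 at the lowest, 1.32 at the median and 3.92 at the highest in FD AGRP libraries (log2 fold change -2.01, SE 0.59, q = 0.0259), and 1 FD library, replicate 4, lay within the fed range. Its level was low, 11.8 ± 6.30 TPM in fed and 2.36 ± 1.45 TPM in FD neurons (SD), and the call was lost without AGRP fed replicate 1 (q = 0.0918) or 3 (q = 0.0590), without AGRP FD replicate 2 (q = 0.0521) or 5 (q = 0.0577), and with limma-voom (q = 0.0536). Slc2a6 passed in only 5 of the 11 alternatives, with q from 0.00218 to 0.767. Slc2a1 was at 19.2, 9.24, 15.0, 15.1 and 28.0 in fed and at 28.5 at the lowest, 33.1 at the median and 42.8 at the highest in FD libraries, so that its groups did not overlap although it did not pass (log2 fold change 0.98, SE 0.37, q = 0.1). For Slc2a3 the log2 fold change was 0.23 ± 0.20 (SE, q = 0.556), with an interval of ± 2 SE from -0.17 to 0.64. The large neutral amino acid exchangers Slc7a5 (LAT1) and Slc7a8 (LAT2) had log2 fold changes of -0.46 ± 0.37 (SE, q = 0.518) and 0.43 ± 0.27 (SE, q = 0.371), and the lysosomal arginine sensor Slc38a9 had -0.69 ± 0.37 (SE, q = 0.277), none of which passed.

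**Figure D2:**
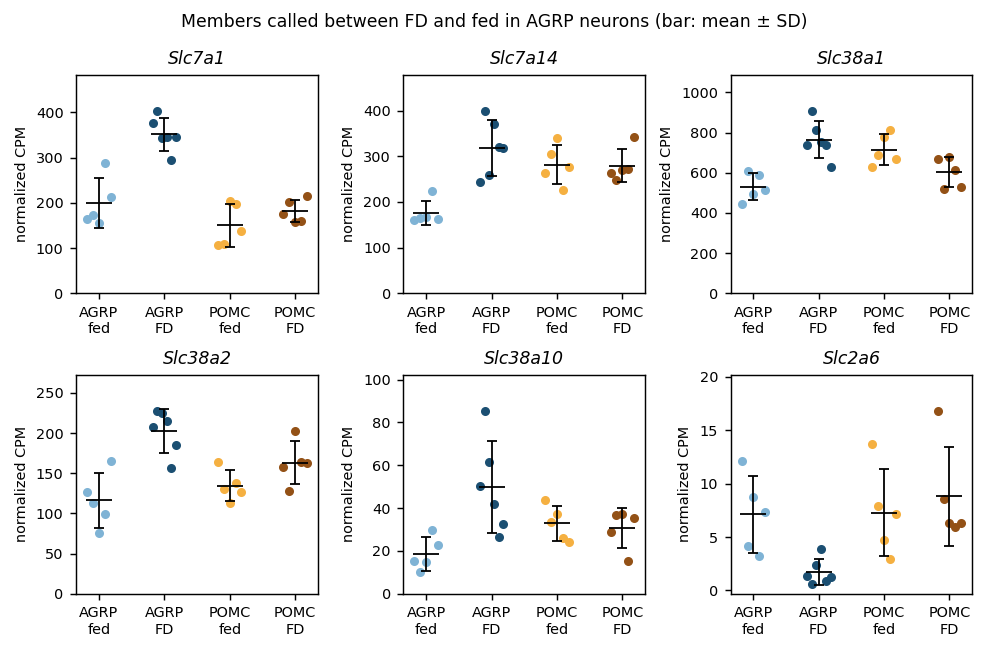
Normalized CPM of each library for the 6 members called between FD and fed AGRP neurons, with 1 panel per gene, 1 point per library and a black bar for the mean ± SD of each group. In AGRP neurons the FD points of Slc7a1 (294 to 403), Slc7a14 (243 to 399) and Slc38a1 (630.0 to 907) lie above all fed points, while the POMC fed and FD points overlap in every panel.

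The 250 bases before an annotated start of 4 of the 5 members that rose are shown because these genes moved together (RefSeq, build GRCm38.p6, which has the coordinates of mm10). Slc38a1 has no entry in the table used, and of the 51 members 36 had one. They were searched on both strands for the E-box CACGTG, which reads the same on both strands and is bound by circadian and lysosomal regulators, and for the C/EBP-ATF response element TGATGNAA, which the amino acid shortage factor Atf4 binds. Capitals mark a match.
Slc7a1, chr5:148399905-148400154, minus strand: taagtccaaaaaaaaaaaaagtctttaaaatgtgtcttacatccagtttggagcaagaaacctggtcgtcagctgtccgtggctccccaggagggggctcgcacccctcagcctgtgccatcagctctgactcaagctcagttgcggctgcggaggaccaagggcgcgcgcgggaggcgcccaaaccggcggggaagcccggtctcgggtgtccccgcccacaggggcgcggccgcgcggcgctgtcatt
Slc7a14, chr3:31310320-31310569, minus strand: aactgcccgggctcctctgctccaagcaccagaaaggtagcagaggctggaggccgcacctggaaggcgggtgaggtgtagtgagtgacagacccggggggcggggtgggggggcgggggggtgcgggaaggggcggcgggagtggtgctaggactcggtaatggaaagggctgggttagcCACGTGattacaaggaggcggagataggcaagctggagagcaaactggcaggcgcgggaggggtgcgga
Slc38a2, chr15:96699729-96699978, minus strand: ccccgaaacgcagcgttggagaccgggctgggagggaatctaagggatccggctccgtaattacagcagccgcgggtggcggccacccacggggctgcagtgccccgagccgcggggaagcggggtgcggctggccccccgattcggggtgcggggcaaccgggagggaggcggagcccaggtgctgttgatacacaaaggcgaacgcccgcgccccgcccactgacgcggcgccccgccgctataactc
Slc38a10, chr11:120151352-120151601, minus strand: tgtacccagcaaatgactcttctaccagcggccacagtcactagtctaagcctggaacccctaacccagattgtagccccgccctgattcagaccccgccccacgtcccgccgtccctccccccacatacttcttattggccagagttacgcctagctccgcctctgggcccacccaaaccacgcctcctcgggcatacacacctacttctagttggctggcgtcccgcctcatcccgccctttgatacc

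The E-box was found in 1 of these 4 windows, that of Slc7a14, from base -69 to -64 before the start, and in 5 of the 36 members with an entry (Slc16a1, Slc16a12, Slc7a14, Slc38a5 and Slc38a7), beside 6.86% of the 27025 genes with an entry. The C/EBP-ATF response element was found in none of the 4 windows and in 1 of the 36 members, Slc7a7, beside 3.91% of genes. Exons, introns and more distant bases were not searched, so the counts do not show whether a gene lacks either motif. G and C made up 60.4 to 72.0% of the 4 windows, which held 13 to 30 CpG pairs, where the median of all windows was 52.4% and 6 pairs. Slc7a1 has a second annotated start, downstream of the one shown, whose window (chr5:148392816-148393065) had 50.0% and 5 pairs and neither motif.

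In POMC neurons, food deprivation changed no member at q under 0.05. None of the 38 tested members passed the edgeR quasi-likelihood test, and none passed with limma-voom or DESeq2, while 2, Slc16a10 and Slc16a14, had an unadjusted p under 0.05. Over all genes 0.182% passed as higher and 0.194% as lower, 0.266% met the stricter criteria, and the libraries of FD and fed mice did not overlap for 2.35% of genes and for 0 of the 38 members. The genes that rose in AGRP neurons had POMC log2 fold changes of 0.28 ± 0.19 (SE, q = 0.604) for Slc7a1, -0.01 ± 0.16 (SE, q = 0.990) for Slc7a14, -0.25 ± 0.13 (SE, q = 0.453) for Slc38a1, 0.28 ± 0.18 (SE, q = 0.579) for Slc38a2 and -0.10 ± 0.33 (SE, q = 0.954) for Slc38a10. Slc7a14 in POMC neurons was at 263, 304, 339, 225 and 276 normalized CPM in fed and 264, 249, 269, 272 and 342 in FD mice. Slc38a1 was at 630.4, 687, 776, 814 and 668 in fed and 671, 519.9, 678, 612 and 531 in FD mice, and Slc38a10 at 43.6, 33.3, 37.1, 25.9 and 24.1 in fed and 28.8, 36.8, 37.1, 15.2 and 35.4 in FD mice. Fed and FD libraries overlapped for all 3.

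The interaction of cell type and deprivation tests whether the change differed between AGRP and POMC neurons, and 3 members passed, each changing more in the positive direction in AGRP neurons. The log2 differences of the changes were 0.87 ± 0.22 (SE, q = 0.0135) for Slc7a14, 0.78 ± 0.18 (SE, q = 0.00713) for Slc38a1 and 1.51 ± 0.46 (SE, q = 0.0442) for Slc38a10. Over the table, 4.08% of all genes passed in this direction, 2.63% in the other and 4.55% by the stricter criteria, which of the members Slc38a10 alone met, and 9 members had an unadjusted p under 0.05. For Slc7a1 and Slc38a2, which also rose in AGRP neurons, the differences were 0.54 ± 0.26 (SE, q = 0.243) and 0.53 ± 0.25 (SE, q = 0.239), so a difference between the cell types was not established for these. For Slc2a6 it was -2.29 ± 0.85 (SE, q = 0.106). The interaction of Slc38a10 lost its call without AGRP fed replicate 1, 2 or 3, AGRP FD replicate 2 or 3, POMC fed replicate 1, 2 or 3, or POMC FD replicate 1, 2, 4 or 5, with q from 0.0516 to 0.0893. It was also lost with limma-voom (q = 0.0643), a term for sorted cells (0.0965), the spike-in set block (0.0855) and the replicate block (0.0780). In mice aged 51 to 56 days alone, only the interaction of Slc7a14 passed (q = 0.00686), with 0.0520 for Slc38a1 and 0.107 for Slc38a10.

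**Figure D3:**
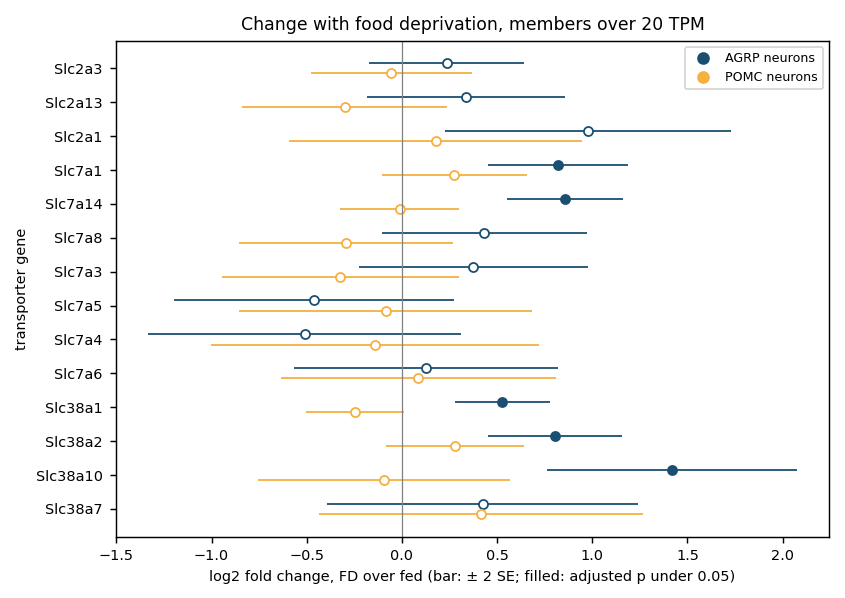
Log2 fold change of FD over fed for the 14 members with a mean over 20 TPM in at least 1 group, in AGRP (blue) and POMC (orange) neurons, with bars of ± 2 SE and filled circles for q under 0.05. The filled circles are Slc7a1, Slc7a14, Slc38a1, Slc38a2 and Slc38a10 in AGRP neurons, from 0.53 to 1.42, and all POMC circles are open.

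In fed mice, AGRP neurons had less RNA than POMC neurons for 5 carriers and more for none. All 5 calls (Slc2a3, Slc2a13, Slc7a3, Slc7a14 and Slc38a1) had libraries that did not overlap, where 8.93% of all genes had such libraries in either direction. Over all genes 3.33% passed as higher and 4.24% as lower in AGRP neurons, and 2 members met the stricter criteria, beside 4.02% of genes. The fed groups enter both this comparison and those of deprivation, so the results share libraries. Slc2a13, the myo-inositol carrier, was at 21, 25.4, 26.8, 31.3 and 25.6 normalized CPM in AGRP and at 126, 124, 86.6, 75 and 102 in POMC neurons (log2 fold change -1.98, SE 0.28, q = 7.01e-06). Every AGRP library was far below every POMC library. Slc7a3 (CAT3), the cationic amino acid carrier of brain, was at 16.9, 21.8, 17.4, 23.5 and 19.97 in AGRP and at 47.3, 54.8, 44.4, 44.0 and 48.9 in POMC neurons (log2 fold change -1.27, SE 0.32, q = 0.00900). Slc2a3 was at 98.5, 82.6, 78.3, 96.0 and 87.1 in AGRP and 164, 140.3, 162, 158 and 121 in POMC neurons (log2 fold change -0.75, SE 0.21, q = 0.0239). Its libraries did not overlap, but the call was lost without AGRP fed replicate 2 (q = 0.0542), 3 (0.0649) or 5 (0.0518) or POMC fed replicate 1 (0.0543). Slc7a14 and Slc38a1 had log2 fold changes of -0.68 ± 0.16 (SE, q = 0.00472) and -0.43 ± 0.13 (SE, q = 0.0351). The latter lost its call without AGRP fed replicate 1 (q = 0.111), 3 (0.0842) or 5 (0.0776) or POMC fed replicate 3 (0.0763) or 4 (0.0935). It also lost it with a term for sorted cells (q = 0.133), the spike-in set block (0.0751), the replicate block (0.0532) or no count filter (0.0676). In mice aged 51 to 56 days alone, the ages that both strains share, neither Slc2a3 (q = 0.0668) nor Slc38a1 (0.0702) passed.

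Among FD mice, 6 of the 38 tested members (15.8%) differed between the cell types, 3 in each direction, and the libraries of all 6 did not overlap. The share called was no higher than that of all genes. Over all genes 9.28% passed as higher and 9.27% as lower in AGRP neurons, 11.4% had libraries that did not overlap, and 8.11% met the stricter criteria, as did Slc2a13 and Slc7a8. Slc7a8 (LAT2), the light chain that exchanges large neutral amino acids, was at 69.7 at the lowest, 90.9 at the median and 145 at the highest in the 6 AGRP libraries and at 16.9, 33.3, 28.2, 59.6 and 52.5 in POMC libraries (log2 fold change 1.36, SE 0.28, q = 0.000521). In fed mice its log2 fold change of AGRP over POMC was 0.63 ± 0.28 (SE, q = 0.198), which did not pass, and its interaction was 0.73 ± 0.39 (SE, q = 0.302). Slc7a1 was also higher in AGRP neurons (log2 fold change 0.95, SE 0.18, q = 0.000325), with AGRP libraries at 294 to 403 and POMC libraries at 175, 202, 159, 160.2 and 215. Slc2a13 stayed lower in AGRP neurons, at 14.1 at the lowest, 33.5 at the median and 52.7 at the highest, against 114, 72.9, 63.0, 74.2 and 93.3 in POMC neurons (log2 fold change -1.34, SE 0.26, q = 0.000282), a direction that turned to a log2 value of 0.15 when counts were scaled to the spike-in RNA, where the median of all genes was 1.10. Slc2a6 was lower as well (log2 fold change -2.32, SE 0.60, q = 0.00555), with 0.632 to 3.92 in AGRP and 16.8, 8.59, 6.30, 5.99 and 6.30 in POMC libraries and replicate 1 apart from the others, and its call was lost in mice aged 51 to 56 days alone (q = 0.0656). Slc38a1, lower in AGRP neurons of fed mice, had a log2 fold change of 0.34 ± 0.12 (SE, q = 0.0516) here and did not pass.

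The other 2 calls were carriers of low level, each all but absent from 1 of the FD groups. Neither passed in the interaction (q = 0.217 for Slc16a9 and 0.0905 for Slc16a10). Slc16a9 (MCT9), a carrier of carnitine, had 1, 1, 3, 0, 0 and 1 counts in the 6 AGRP FD libraries and 39, 167, 178, 55 and 39 in the 5 POMC FD libraries. Taking the AGRP libraries at a floor of 3 counts each, the mean level was at least 31.2-fold lower there. The edgeR test gave a log2 fold change of -6.32 (SE 1.21, q = 0.000265). In fed mice Slc16a9 was at 1, 31, 1, 6 and 6 counts in AGRP and 77, 68, 6, 185 and 91 in POMC libraries and did not pass (q = 0.0834). Slc16a10 (TAT1), a carrier of aromatic amino acids, had 89, 17, 173, 21, 264 and 4 counts in AGRP FD and 1, 2, 2, 2 and 0 in POMC FD libraries. With the POMC libraries at the same floor, the mean level was at least 27.3-fold higher in AGRP neurons, with a wide spread among the AGRP mice. This bound holds for the mean and not for each library, as the lowest AGRP library, at 0.298 normalized CPM, was near the mean floor of 0.188. The edgeR test gave a log2 fold change of 5.85 (SE 1.61, q = 0.00935). In fed mice the difference did not pass (q = 0.939), where POMC fed replicate 3 alone had 182 counts and 3 others had 0.

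**Figure D4:**
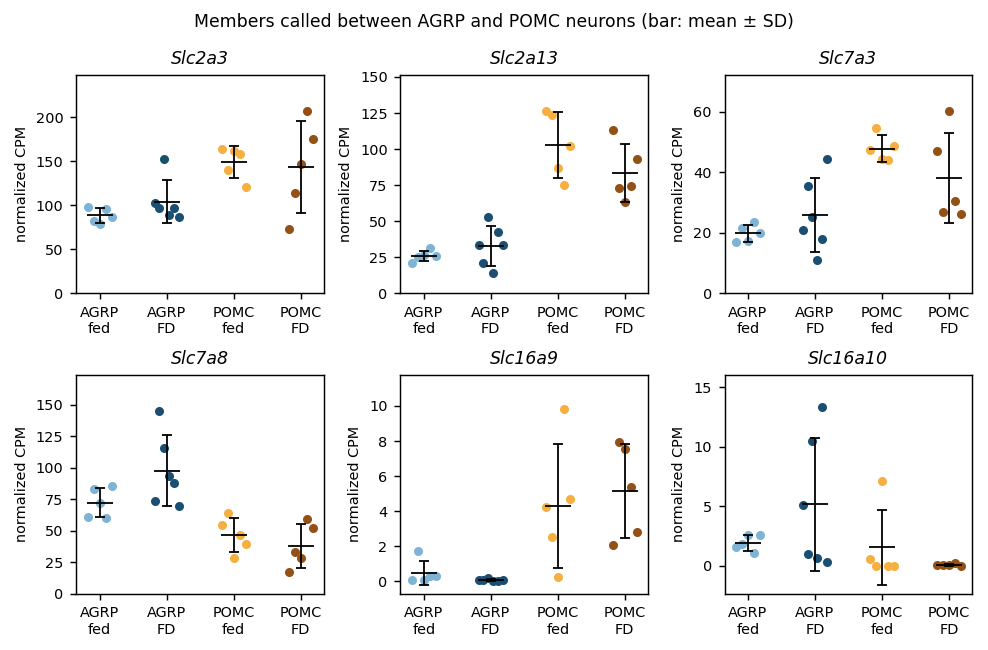
Normalized CPM of each library for 6 members called between AGRP and POMC neurons in fed or FD mice, with 1 panel per gene, 1 point per library and a black bar for the mean ± SD of each group. Slc2a13 lies at 21 to 31.3 in AGRP fed against 75 to 126 in POMC fed libraries, and Slc16a9 and Slc16a10 are near 0 in AGRP FD and POMC FD libraries, respectively.

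Further genes of the same pathways were counted in 5 lists, for which signed values with an SE are log2 fold changes of FD over fed or of AGRP over POMC, or the interaction of both. Carriers depend on partner proteins, and 3 of the 10 tested genes of a list of 11 heavy chains, chaperones and trafficking regulators rose in AGRP neurons with deprivation and none fell, with a median log2 fold change of 0.48, where 5.87% of all genes rose and 4.43% fell. None passed in POMC neurons (median 0.02). Tbc1d4 (AS160), which holds glucose carriers inside the cell until insulin acts, went from 10.2 ± 2.80 to 22.5 ± 9.08 TPM in AGRP neurons, a log2 fold change of 1.35 ± 0.36 (SE, q = 0.0131), and was higher there than in POMC neurons of FD mice at 1.82 ± 0.36 (SE, q = 0.000443). The interaction passed for Nedd4l, a ubiquitin ligase that removes carriers from the membrane, at -1.20 ± 0.26 (SE, q = 0.00368), with 87.4 ± 10.3 and 52.0 ± 9.81 TPM in AGRP fed and FD and 45.9 ± 18.1 and 79.5 ± 10.8 TPM in POMC fed and FD neurons. It also passed for embigin (Emb), a chaperone of monocarboxylate carriers, at 1.07 ± 0.31 (SE, q = 0.0316). Between the cell types, 1 gene of the list was higher and 2 were lower in AGRP neurons of fed mice, beside 3.33% and 4.24% of all genes. In FD mice 3 were higher and none lower, beside 9.28% and 9.27%.

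Of the 25 glycolysis genes, all tested, 2 rose and 2 fell in AGRP neurons (median log2 fold change -2.1e-05 with -0.02 over all genes, of which 5.87% rose and 4.43% fell) and none passed in POMC neurons. The phosphofructokinase genes Pfkp and Pfkl moved in opposite directions. Pfkp went from 79.1 ± 22.1 to 145 ± 23.2 TPM, a log2 fold change of 1.14 ± 0.19 (SE, q = 0.000116), and Pfkl from 55.5 ± 15.0 to 21.9 ± 9.13 TPM, at -1.10 ± 0.30 (SE, q = 0.0153). The remaining gene of this kind, Pfkm, had means of 109 and 69.2 TPM in AGRP fed and FD neurons. It was not among the genes called with an absolute log2 value above 1. In fed mice AGRP neurons had less RNA of 4 of these genes and more of none, beside 4.24% of all genes lower and 3.33% higher. Hexokinase 2 (Hk2) was among the 4, at -3.17 ± 0.78 (SE, q = 0.00787). Its level was low, 1.41 ± 1.48 TPM in AGRP fed and 11.7 ± 6.74 TPM in POMC fed neurons (SD). In FD mice 3 were higher and 3 lower in AGRP neurons, beside 9.28% and 9.27% of all genes. Values were 1.07 ± 0.19 (SE, q = 8.62e-05) for Pfkp, 2.53 ± 0.73 (SE, q = 0.0138) for the bifunctional enzyme Pfkfb4, -1.29 ± 0.24 (SE, q = 0.000216) for aldolase C and -2.70 ± 0.67 (SE, q = 0.00430) for the enolase Eno3. Pfkfb4 was low and scattered, at 2.51 to 34.1 TPM in AGRP FD and 0.739 to 4.24 TPM in POMC FD libraries, which overlapped. Eno3 was at 4.40 ± 3.89 TPM in AGRP FD and 31.2 ± 16.4 TPM in POMC FD neurons (SD).

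Of 17 tested of 19 genes that use lactate, pyruvate and ketone bodies, the cargo of Slc16a carriers, 2 rose and 1 fell in AGRP neurons with deprivation (median 0.36, with 5.87% of all genes higher and 4.43% lower) and none passed in POMC neurons (median -0.01). Dlat, a core subunit of the pyruvate dehydrogenase complex, went from 174 ± 24.7 to 322 ± 41.9 TPM in AGRP neurons, at 1.16 ± 0.16 (SE, q = 1.67e-05). Pdk2, a kinase that switches the same complex off, went from 95.4 ± 14.2 to 23.0 ± 14.4 TPM, at -1.86 ± 0.40 (SE, q = 0.00197), and was at 22.9 ± 12 and 62.5 ± 32.7 TPM in POMC fed and FD neurons. The interaction passed for Pdk2 at -3.15 ± 0.57 (SE, q = 0.000662), for Dlat at 1.17 ± 0.23 (SE, q = 0.00183), for its fellow kinase Pdk3 at 2.22 ± 0.68 (SE, q = 0.0444) and for Ldha, which makes lactate from pyruvate, at 1.05 ± 0.26 (SE, q = 0.0132). In fed mice Ldha was at 266 ± 49.4 TPM in AGRP and 748 ± 165 TPM in POMC neurons, at -1.66 ± 0.19 (SE, q = 2.45e-07). The pyruvate carrier subunit Mpc2 and Pdk3 were lower in AGRP neurons at -1.07 ± 0.28 (SE, q = 0.0149) and -2.03 ± 0.50 (SE, q = 0.00821), while Pdk2 was higher at 1.84 ± 0.42 (SE, q = 0.00398). Among FD mice, AGRP neurons had more of the ketone-using enzyme Oxct1, at 1.03 ± 0.19 (SE, q = 0.000203), and less Pdk2, at -1.32 ± 0.39 (SE, q = 0.0164).

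Of 30 tested of 32 genes that sense or respond to amino acid supply, 3 rose and none fell in AGRP neurons (median 0.13), where 5.87% of all genes rose and 4.43% fell. The share called was near that of the table, and none passed in POMC neurons. Atf4, the transcription factor of the amino acid shortage response, went from 179 ± 23.6 to 325 ± 123 TPM in AGRP neurons, at 1.13 ± 0.24 (SE, q = 0.00194), with an interaction of 1.15 ± 0.34 (SE, q = 0.0368). Its target asparagine synthetase (Asns) was at 90.4 ± 28.3 and 93.0 ± 9.71 TPM in AGRP fed and FD neurons and was lower in fed AGRP than in fed POMC neurons, at -1.16 ± 0.23 (SE, q = 0.000742). The mTORC1 inhibitor Sesn1 had an interaction of -1.19 ± 0.37 (SE, q = 0.0473). In FD mice AGRP neurons were higher than POMC neurons in Atf4, at 1.11 ± 0.24 (SE, q = 0.00106), and Atf5, at 1.74 ± 0.44 (SE, q = 0.00429), and lower in the Rag GTPase Rragd, at -1.07 ± 0.21 (SE, q = 0.000263).

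Carriers of glucose and amino acids from other families were counted in the same way, and of 14 tested of 20, 2 rose and 1 fell in AGRP neurons, beside 5.87% and 4.43% of all genes. In POMC neurons 1 fell and none rose, beside 0.194% and 0.182%. Slc6a17, a carrier of neutral amino acids into synaptic vesicles, rose in AGRP neurons from 137 ± 22.4 to 259 ± 42.4 TPM, at 1.18 ± 0.15 (SE, q = 4.51e-06). It was at 262 ± 31.8 and 199 ± 26.6 TPM in POMC fed and FD neurons, with an interaction of 1.7 ± 0.22 (SE, q = 6.82e-06) and a lower level in AGRP than POMC neurons of fed mice, at -1.13 ± 0.16 (SE, q = 6.35e-06). Slc45a1, a proton-coupled glucose carrier of brain, was the gene that fell in POMC neurons, from 52.6 ± 6.65 to 21.7 ± 11.0 TPM, at -1.42 ± 0.28 (SE, q = 0.00929). It stood at 33.9 ± 7.13 and 52.4 ± 8.20 TPM in AGRP fed and FD neurons, with an interaction of 2.30 ± 0.38 (SE, q = 0.000227) and a difference between the cell types in FD mice of 1.46 ± 0.27 (SE, q = 0.000168). Slc6a15, a carrier of branched-chain amino acids and proline, was lower in AGRP than POMC neurons in fed mice at -1.94 ± 0.35 (SE, q = 0.000312) and in FD mice at -3.24 ± 0.35 (SE, q = 2.89e-08). The glutamate carrier Slc1a6 was lower in FD mice at -1.36 ± 0.44 (SE, q = 0.0295). The glutamine exchanger Slc1a5 had 1.57 ± 1.88 TPM in AGRP fed against 0.0126 ± 0.0282 TPM in POMC fed neurons (q = 0.0359).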

How the data were processed

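RNA of GFP-labelled arcuate neurons was amplified with the Ovation RNA-Seq System V2 and made into libraries with the Encore Multiplex System, with no molecular identifiers named in the protocols, so that counts are of amplified reads. The authors trimmed adaptors with cutadapt 1.7.1, removed abundant sequences with Bowtie2 2.1.0, aligned reads to mm10 with STAR 2.4.0i and counted reads per gene without regard to strand with HTSeq 0.6.1p1. The deposited counts are raw, with 35266 genes and 92 spike-in RNAs, and the reads outside genes were 24.2 to 52.1% of a library. The deposited TPM values are these counts divided by exon length and scaled by the authors to the same total in every library.

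Genes with CPM over 1 in at least 3 of the 21 libraries (16513) were scaled by TMM and fitted in all 4 groups with the edgeR quasi-likelihood test (edgeR 4.0.16, R 4.3.3), with Benjamini-Hochberg q over all genes and ± 2 SE as intervals. The design had 5 comparisons, the interaction included. Normalized CPM is CPM on the TMM-scaled library size. Alternatives were limma-voom (limma 3.58.1), which the study used, DESeq2 1.42.0, RLE factors, spike-in scaling, no count filter, the compared groups alone, replicate, age cohort and sorted cell terms, omission of each library and the stricter criteria. A block for the spike-in set and mice aged 51 to 56 days alone were added after the data were seen. The scripts were tested on simulated data. Tables and plots were made with Python 3.11.15, numpy 2.4.6, pandas 2.3.3 and matplotlib 3.10.9.

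The members, the pathway lists and the markers were chosen with earlier results of these data known. Named were all members called in any comparison, the 2 members of each family with the highest mean TPM, and in each pathway list the called genes with an absolute log2 value above 1, at most 5 per comparison. Slc2a1, Slc7a5, Slc38a9 and the members in the closing paragraph were named after their values were seen. A further member is not reported here. The p-values rest on the spread between mice, 1 library each.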

Additional observations from a re-analysis of the deposited data

Results flagged for a closer look

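In 6 of the 56 sets of libraries tested (14 named members in 4 groups), 1 library lay apart from the others of its group by Dixon's test, which chance alone gives in about 1 of 20 sets. These were, in normalized CPM, Slc2a3 in AGRP FD replicate 3, at 152 with the next library at 102, Slc2a6 in POMC FD replicate 1, at 16.8 with the next at 8.59, Slc16a9 in AGRP fed replicate 2, at 1.71 with the next at 0.321, and Slc16a10 in POMC fed replicate 3, at 7.15 with the next at 0.552. Slc7a14 was marked in AGRP fed replicate 4, at 224 with the next library at 166, and in POMC FD replicate 5, at 342 with the next at 272.

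The change with deprivation differed between AGRP and POMC neurons, by the interaction term, for Slc7a14 (log2 difference 0.87), Slc38a1 (0.78) and Slc38a10 (1.51), the last of which passed in 4 of 10 alternatives and was lost with limma-voom among others.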

How the results depend on the processing

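Between FD and fed AGRP neurons 6 members passed, and 5 to 7 did when each library was left out in turn. For POMC neurons the count stayed at 0 (0 to 0), for AGRP against POMC neurons it went from 5 to between 3 and 5 in fed (3 without AGRP fed replicate 3 or 5) and from 6 to between 6 and 8 in FD mice, and for the interaction from 3 to between 2 and 4. Spike-in scaling left 0 members in the first comparison, 0 in fed mice, 3 in FD mice and 0 in the interaction. Of all 16513 genes, it left 52 higher and 45 lower in the first comparison and 158 and 139 in fed mice. In FD mice it left 892 and 225, and in the interaction 100 and 19. It moved the median of all genes to -1.11 in POMC neurons, 1.10 between the cell types of FD mice and 1.04 in the interaction, and the labelled spike-in volume ran from 1 to 10 µl. The stricter criteria left 1, 2, 2 and 1 members in the same 4 comparisons. DESeq2 called 5 members in the interaction, and mice aged 51 to 56 days alone gave 1. With a limit of 10 TPM 22 members counted as expressed, and with 40 TPM 8 did. The other alternatives changed these counts by at most 1.5 times.

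Directions turned for Slc2a13 between AGRP and POMC neurons of FD mice under spike-in scaling (0.15), for Slc7a14 between FD and fed POMC neurons under DESeq2 (0.0046) and RLE factors (0.0047) and between -0.10 and 0.063 without each library, and for Slc38a10 in POMC neurons under the spike-in set block (0.24) and between -0.19 and 0.075 without each library. The cause was not tested.

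The replicate block gave 5, 0, 4, 7 and 2 members in the 5 comparisons in the order above. The correlation of deviations between samples with the same number ran from -0.122 to 0.0511, and none of the pairs was over 0.1. This cannot show whether such samples shared a day, lane or handling.

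Depth limits the low members: 3 counts in a library stand for 0.0797 to 0.305 CPM.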

Other observations

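Some carriers of low level had an unadjusted p under 0.05 without passing. Slc16a14, an orphan monocarboxylate carrier, was at 12.8, 11.0, 5.50, 21.6 and 2.46 normalized CPM in POMC fed and 0.0532, 0.286, 0.0845, 5.50 and 4.06 in POMC FD libraries (log2 fold change -2.43, SE 1.08, q = 0.345 by edgeR), with overlap of the groups. Slc7a2, a cationic amino acid carrier of liver and immune cells, was at 5.12, 1.82, 7.79, 4.88 and 2.89 in AGRP fed and at 0 at the lowest, 0.0524 at the median and 1.96 at the highest in AGRP FD libraries (log2 fold change -3.62, SE 1.32, q = 0.0813 by edgeR), where 1 FD library lay within the fed range. The fructose carrier Slc2a5 was at 2.06, 0.0550, 4.20, 2.32 and 1.23 in AGRP fed and at 0 at the lowest, 0.197 at the median and 0.819 at the highest in AGRP FD libraries (q = 0.201 by edgeR), and its groups overlapped.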
